A study of Mus musculus with 30 samples.

Results

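The 10 genes described here encode the cytokine TL1A, its receptor DR3 and the proteins that carry the DR3 signal. They were listed by name, with earlier results of these data known. They are Tnfsf15, Tnfrsf25, Tradd, Traf2, Ripk1, Birc2, Birc3, Map3k7, Nfkb1 and Nfkbia, out of 24035 gene symbols shared by the ileum and lung count tables. Poly-A RNA was sequenced from the terminal ileum and the post-caval lobe of the lung of C57bl/6 mice of both sexes, with 16 ileum libraries (5 WT, 5 Mem and 6 Mem+Sol) and 14 lung libraries (5 WT, 5 Mem and 4 Mem+Sol). Mem mice overexpressed TL1A with the deletion "Delta 69-93", which restricts it to the membrane, and Mem+Sol mice overexpressed membrane-bound and soluble TL1A. The label of the WT group, used here as the control, also speaks of TL1A driven by the CD2 promoter, so the labels alone do not settle whether WT mice carried a transgene. The labels do not say whether the libraries of a group came from separate mice, so p-values measure the spread between these samples only. No age, founder line or treatment was given in the sources used here. The CD2 promoter is active in T cells and other lymphocytes, so a transgene under it models TL1A made by those cells and not by the myeloid and endothelial cells that are its usual sources.

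TL1A is made as a trimeric membrane protein of the tumour necrosis factor family and can be cut from the cell surface to give a soluble trimer. Both forms bind DR3, a death-domain receptor of T cells and innate lymphoid cells, which recruits TRADD and through it TRAF2, RIPK1 and the inhibitor of apoptosis proteins cIAP1 and cIAP2 (Birc2 and Birc3). Ubiquitin chains built on this complex bring in the kinase TAK1 (Map3k7), which starts the IκB kinase and MAP kinase branches. NF-κB made from the Nfkb1 product then enters the nucleus and switches on genes that include its own inhibitor, Nfkbia.

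The deleted stretch is shown first because it is what sets the Mem form apart. Tnfsf15 (ENSMUSG00000050395.8) lies on chromosome 4 at 63727084 to 63745113 of GRCm38, minus strand, and its coding region of 270 codons is spread over 4 exons, with ATG codons in frame at codons 1 and 19. The label does not say from which start residues 69 to 93 were counted, so both countings are shown. Capitals mark the 25 codons that would be missing and lower case the 15 coding bases on each side, all from the GENCODE annotation of GRCm38.
Counted from codon 1, exons 1 to 2, chr4:63734294-63744880, introns left out: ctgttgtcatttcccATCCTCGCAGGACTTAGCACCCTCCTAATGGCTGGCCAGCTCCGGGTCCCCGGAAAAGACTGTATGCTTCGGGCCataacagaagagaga
Counted from codon 19, exons 1 to 3, chr4:63733353-63744826, introns left out: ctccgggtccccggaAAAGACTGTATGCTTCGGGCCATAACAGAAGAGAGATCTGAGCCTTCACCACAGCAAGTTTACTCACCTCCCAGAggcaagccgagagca
Either way the deletion covers 75 of the 3347 exonic bases of the gene. Which of the other exonic bases the transgenes carry is not given in the sources used here. The tables hold 1 count per gene, so transcript of the mouse's own Tnfsf15 gene and of a transgene are summed.

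Promoter windows of the members were searched for the NF-κB (κB) consensus on both strands, since Nfkbia, Birc3 and other pathway genes are known NF-κB targets. RefSeq windows of 300 bases on GRCm38.p6, the first 250 of them upstream of a start, were found for 8 members. Of the 8, 3 held a match, against 2581 of 27025 genes with a window (9.55%). The upstream matches, in capitals, began 92 bases before a start of Map3k7, 28 bases before the second annotated start of Tnfrsf25 and 29 bases before the start of Nfkbia. A further match, not printed, began 36 bases past that Tnfrsf25 start.
Map3k7, chr4:31963995-31964044, plus strand: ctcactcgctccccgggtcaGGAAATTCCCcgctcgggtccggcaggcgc
Tnfrsf25, chr4:152116295-152116342, plus strand: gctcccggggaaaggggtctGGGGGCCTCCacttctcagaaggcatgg
Nfkbia, chr12:55492648-55492696, minus strand: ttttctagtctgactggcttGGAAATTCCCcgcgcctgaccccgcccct
The Map3k7 and Nfkbia windows shared the same 10 letters. A match is a description of the sequence and not a binding site.

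Library totals ran from 4.3 to 36.1 M (mega) counts in the ileum and from 22.3 to 39.1 M in the lung, and ileum WT libraries were the shallowest (median 10 M, against 23.5 M in Mem and 20.6 M in Mem+Sol). Lung libraries came from sequencing batches 1 and 2, and all ileum libraries from batch 3, so level differences between the tissues and between those batches cannot be told apart. Tissue labels matched the defining markers. The 6 ileal epithelium markers summed to 4880 to 15500 CPM (counts per 1 M counts) in ileum libraries and to 1.81 to 6.59 CPM in lung libraries, and the 6 lung epithelium markers to 44400 to 63500 CPM in the lung and 1.92 to 8.97 CPM in the ileum. In these pieces of whole tissue, fewer cells of a type and less RNA per cell cannot be told apart. All 10 members passed the filter on low counts in both tissues, among 14959 genes tested in the ileum and 15885 in the lung.

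In the lung, the ligand transcript rose with both transgenes, the receptor rose in Mem and, set against Mem, was lower in Mem+Sol, and of the 8 signalling genes Traf2 and Birc3 rose in Mem. In the ileum no member passed the test in Mem, and Birc3 alone passed in Mem+Sol, where it was lower. Values are CPM scaled to the trimmed-mean (TMM) library size within a tissue, and a gene was called at an adjusted p under 0.05 in edgeR's quasi-likelihood test, adjusted over all tested genes by the Benjamini-Hochberg method.

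**Figure D1:**
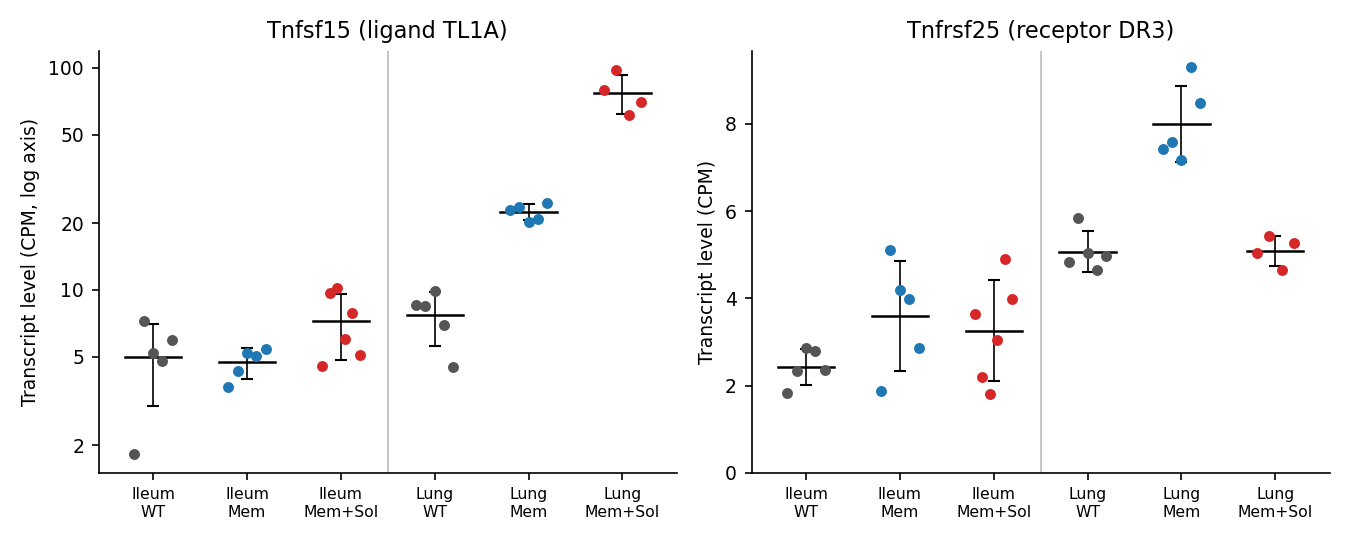
Transcript level in CPM of Tnfsf15 (left, log axis) and Tnfrsf25 (right, linear axis) in each library of the 6 tissue and genotype groups; points are libraries, horizontal bars are means and error bars are SD. Lung Tnfsf15 forms 3 separate bands (WT up to 9.92, Mem 20.2 to 24.5, Mem+Sol from 61.5 CPM), whereas the ileum groups overlap, and lung Tnfrsf25 is highest in Mem.

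Tnfsf15, the TL1A gene and the target of the transgenes, stood at 8.56, 8.49, 9.92, 6.92 and 4.49 CPM in the 5 WT lungs. The Mem lungs held 23, 23.7, 20.2, 20.8 and 24.5 CPM, and the Mem+Sol lungs 79.4, 97.9, 61.5 and 70.5 CPM. The 3 groups did not overlap, and every Mem+Sol library lay above every Mem library. Mem exceeded WT by 1.57 ± 0.18 on the log2 scale (± SE, adjusted p = 0.000242) and Mem+Sol exceeded WT by 3.37 ± 0.20 (adjusted p = 9.92e-07). Mem+Sol exceeded Mem by 1.79 ± 0.18 (adjusted p = 0.000533). Within batches 1 and 2 the log2 values were 1.80 and 1.45 for Mem, and 3.90 and 2.95 for Mem+Sol.

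The same gene did not separate the ileum groups. Ileum WT libraries held 1.83, 7.25, 5.21, 4.8 and 5.92 CPM of Tnfsf15, Mem libraries 3.64, 4.3, 5.2, 5.05 and 5.42 CPM, and the 6 Mem+Sol libraries 4.55 to 10.2 CPM with a median of 6.94 CPM. The highest WT library exceeded every Mem library, and the groups overlapped throughout. The log2 difference from WT was -0.14 in Mem (95% interval -0.83 to 0.55, adjusted p = 0.832) and 0.43 in Mem+Sol (-0.26 to 1.13, adjusted p = 0.336). Tnfsf15 RNA therefore did not check the genotype labels of the ileum libraries. The effect itself differed between the tissues, by 1.69 ± 0.38 (log2, lung minus ileum, adjusted p = 0.00688) for Mem and 2.92 ± 0.39 (adjusted p = 5.78e-05) for Mem+Sol.

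Cd2, whose promoter the WT label names and which encodes a lymphocyte adhesion molecule, was listed beside the ligand in both tissues. Its mean level was 32.9 ± 5.29 CPM in WT lungs (SD, n = 5), 45.4 ± 6.15 CPM in Mem lungs (n = 5) and 45 ± 6.75 CPM in Mem+Sol lungs (n = 4). In the ileum it was 1.91 ± 0.723 CPM (n = 5), 2.37 ± 0.865 (n = 5) and 3.21 ± 1.03 (n = 6). The part of the Cd2 level in the tissue difference of Tnfsf15 was not tested, and each tissue was normalized separately.

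Tnfrsf25 (ENSMUSG00000024793.14, chromosome 4 at 152115934 to 152120119), the DR3 gene, stood at 4.84, 5.85, 5.04, 4.64 and 4.98 CPM in WT lungs. Mem lungs held 7.43, 7.59, 7.18, 9.3 and 8.48 CPM, all above the WT range. Mem+Sol lungs held 5.03, 5.43, 4.64 and 5.27 CPM, within the WT range and below all Mem libraries. The rise in Mem was 0.63 ± 0.10 on the log2 scale (adjusted p = 0.00198), with 0.72 in batch 1 and 0.49 in batch 2, where it did not pass (adjusted p = 0.239). In Mem+Sol the difference from WT was -0.03 (95% interval -0.27 to 0.21, adjusted p = 0.916). Mem+Sol lay below Mem by -0.66 ± 0.11 (adjusted p = 0.0151), although the ligand was higher there. It did not pass after Mem+Sol replicate 3 was left out (adjusted p = 0.0518), with only these 2 genotypes in the fit (adjusted p = 0.0643) and in batch 1 alone (adjusted p = 0.214).

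In the ileum, Tnfrsf25 held 1.83, 2.33, 2.87, 2.78 and 2.35 CPM in WT and 1.87, 5.1, 4.2, 3.98 and 2.85 CPM in Mem. The 6 Mem+Sol libraries held 1.81 to 4.9 CPM with a median of 3.34. Most transgenic libraries lay above the WT range, but others lay within it or just below it. Neither difference from WT passed the test, with 0.64 (95% interval -0.04 to 1.32, adjusted p = 0.235) in Mem and 0.48 (-0.19 to 1.15, adjusted p = 0.261) in Mem+Sol. With all ileum libraries thinned to the smallest total, the Mem value was 0.40 (adjusted p = 0.535). The effect on Tnfrsf25 was not called different between the tissues, by -0.02 (95% interval -0.70 to 0.66) for Mem and -0.49 (-1.21 to 0.22) for Mem+Sol.

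Markers of the cells that carry DR3 moved in the same lungs. Of 8 T cell markers tested in the lung, 7 were called higher in Mem, where 6.41% of all tested genes were. In Mem+Sol 0 were called, where 0.523% of tested genes were called higher. The median log2 difference of the list from WT was close in both, at 0.614 in Mem and 0.503 in Mem+Sol. The summed level of the markers was 104 to 132 CPM in WT, 119 to 198 in Mem and 152 to 180 in Mem+Sol. All 5 regulatory T cell markers were called higher in Mem and 3 of 5 in Mem+Sol, and Foxp3, the factor that defines these cells, went from 1.2 ± 0.41 CPM in WT (SD, n = 5) to 10.8 ± 3.52 CPM for Mem (n = 5) and 6.13 ± 2.87 CPM for Mem+Sol (n = 4). Set against the summed T cell markers, a ratio chosen after the values were seen, Tnfrsf25 held 4.57 ± 0.717 CPM per 100 CPM of markers in WT, 4.84 ± 0.987 in Mem and 3.18 ± 0.24 in Mem+Sol lungs. The Mem ratio differed from WT by less than the SD of either group. The Mem+Sol ratios (2.96 to 3.47) lay below all WT (3.52 to 5.48) and Mem (3.8 to 6.23) ratios. None of the 8 markers was at 0 in any group, and their part in the Tnfrsf25 result was not tested.

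In the ileum the summed T cell markers were 31 to 105 CPM in WT, 14.7 to 55.5 in Mem and 12.2 to 48.5 in Mem+Sol, with 0 of 7 tested markers called in Mem and 1 (Cd3e, lower) in Mem+Sol. Per 100 CPM of these markers, Tnfrsf25 held 5.71 ± 2.72 CPM in WT (SD), 18.5 ± 9.49 in Mem and 14.7 ± 10.4 in Mem+Sol ileum. The ranges of this ratio overlapped (1.74 to 7.9, 3.36 to 27.1 and 4.53 to 32.7), and it was not tested. Over all tested genes 5% were called higher in Mem and 16.6% in Mem+Sol ileum. Of 8 markers of type 2 innate lymphoid and Th2 cells, which also carry DR3, 6 were called higher in each transgenic ileum. Il1rl1, the IL-33 receptor of these cells, went from 7.53 ± 1.56 CPM in WT (SD, n = 5) to 161 ± 81.1 CPM for Mem (n = 5) and 152 ± 92.6 CPM for Mem+Sol (n = 6), and Gata3, their lineage factor, which was not called, stood at 6.55 ± 4.07, 13.9 ± 9.54 and 12.6 ± 7.54 CPM. Il1rl1 ranges did not overlap between WT (up to 9.72 CPM) and Mem (from 24.3 CPM). In the lung 2 of 7 tested markers of this list were called higher in Mem and 1 in Mem+Sol.

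**Figure D2:**
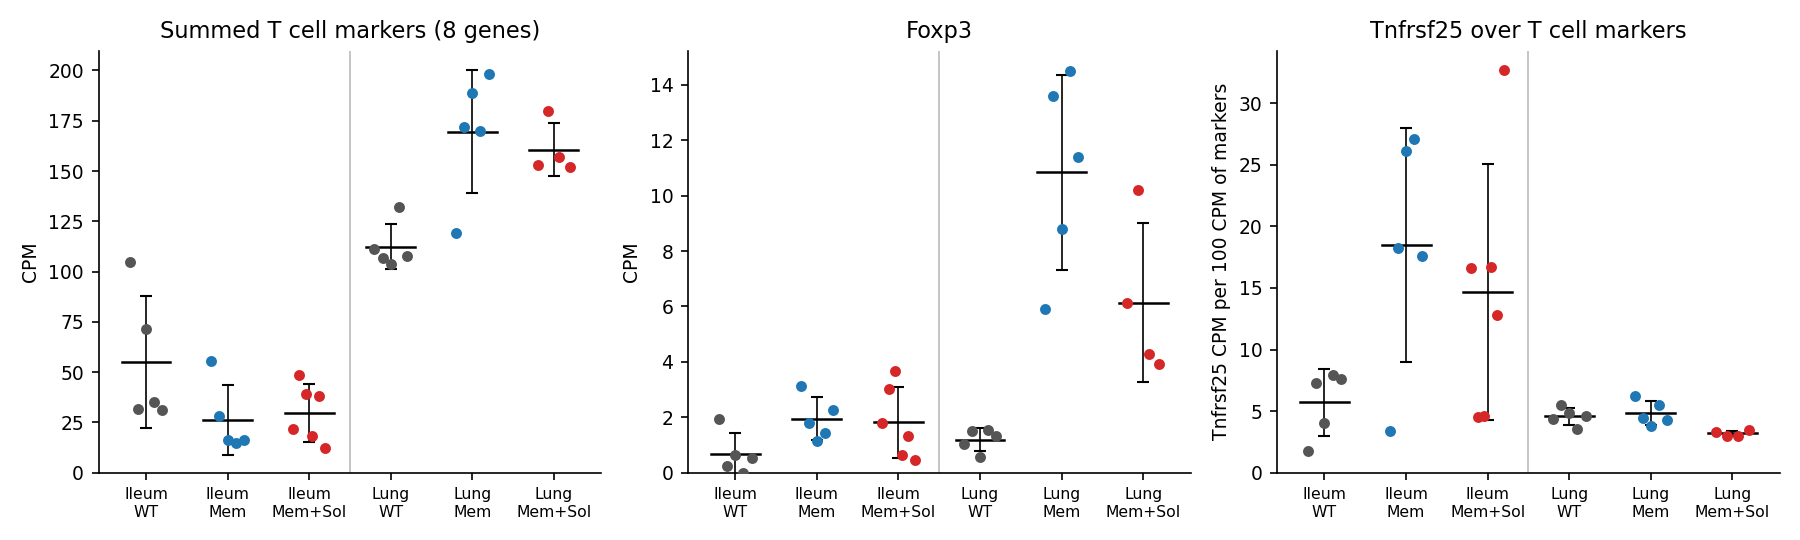
Summed CPM of 8 T cell markers (left), Foxp3 in CPM (middle) and Tnfrsf25 in CPM per 100 CPM of the summed markers (right) in each library of the 6 groups; points are libraries, bars are means and error bars are SD. Foxp3 is at most 1.55 CPM in every WT lung and at least 3.92 CPM in every Mem and Mem+Sol lung, and the ratio is lowest in Mem+Sol lungs (mean 3.18).

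Of the 10 members, 4 were called higher in Mem lungs (Tnfsf15, Tnfrsf25, Traf2 and Birc3) and none lower, where 9.46% of all tested genes were called, 6.41% higher and 3.05% lower. The ranges of 3 of them (all but Traf2) lay wholly above WT and none below, where the ranges of 5.02% of all tested genes were apart, 3.81% above and 1.2% below. The median log2 difference over the members was 0.185, beside -0.0168 over all tested genes. In Mem+Sol lungs 1 member, Tnfsf15, was called higher and none lower, where 0.844% of tested genes were called, 0.523% higher and 0.321% lower, and the median over the members was 0.0381 beside 0.00528. The ranges of Tnfsf15 and Birc3 lay wholly above WT there, where 3.63% of tested genes had ranges apart, 2.08% above and 1.55% below. Between Mem+Sol and Mem lungs Tnfsf15 was called higher and Tnfrsf25 lower, against 0.862% and 1.37% of tested genes (2.23% in all). Their ranges were also apart, where those of 3.66% of tested genes were, 1.93% above and 1.74% below. Tnfsf15 is the target of the transgenes and its counts can include their transcript. Its lung calls therefore follow from the design and say nothing about the rest of the pathway. The Traf2 and Birc3 calls were lost in most fits that left out 1 library, as given below. The comparisons of Mem and of Mem+Sol with WT share the WT libraries and are not independent.

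In the ileum 0 of the 10 members were called in Mem by edgeR and 0 by DESeq2, with 1 at an unadjusted p under 0.05 (Birc3), while 8.06% of tested genes were called, 5% higher and 3.06% lower. In Mem+Sol 1 member (Birc3) was called lower and none higher, where 28.7% of genes were called, 12.1% lower and 16.6% higher. Between Mem+Sol and Mem ileum 0 members were called by either tool and 0 had an unadjusted p under 0.05, where 0.0134% of genes were called. No member had ranges apart from WT in either ileum comparison, against 8.74% of genes in Mem (4.79% above and 3.94% below) and 13.5% in Mem+Sol (7.57% above and 5.97% below). Between Mem+Sol and Mem ileum no member had ranges apart either, against 0.909% of genes (0.602% above and 0.308% below). The member medians were -0.109 and -0.0241, beside 0.000626 and 0.0142 for all tested genes.

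**Figure D3:**
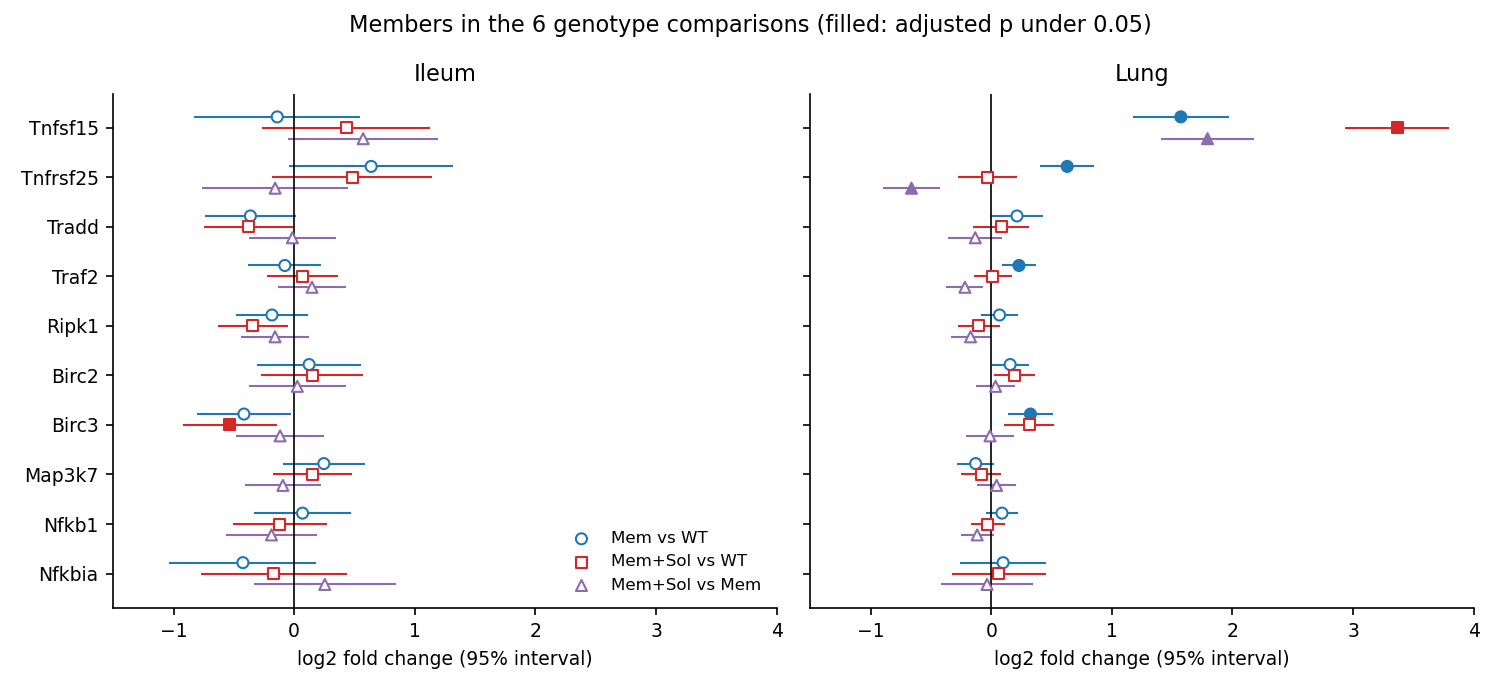
Log2 fold change with its 95% interval for the 10 members in the ileum (left) and the lung (right), for Mem against WT (circles), Mem+Sol against WT (squares) and Mem+Sol against Mem (triangles); filled symbols passed an adjusted p of 0.05. Tnfsf15 and Tnfrsf25 are the 2 members with filled symbols in more than 1 lung comparison, and Birc3 in Mem+Sol is the 1 filled symbol in the ileum.

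Tradd (ENSMUSG00000031887.13), the death-domain adaptor that binds the receptor first, passed no test. WT lungs held 17.2, 14.4, 21, 24.2 and 18.1 CPM, Mem lungs 17.8, 16.5, 23.5, 24.6 and 25.7 CPM and Mem+Sol lungs 22.9, 17.2, 17.3 and 17.4 CPM, which overlapped. The log2 difference was 0.21 in Mem (95% interval 0.00 to 0.43, adjusted p = 0.185) and 0.08 in Mem+Sol. In the ileum Tradd held 99.1 to 136 CPM in WT and 67.2 to 111 CPM in Mem+Sol, and 4 of 5 Mem libraries held 75.8 to 79.3 CPM while Mem replicate 1 held 138. The Mem value was -0.36 ± 0.18 (adjusted p = 0.228), and without Mem replicate 1 it was -0.57 (adjusted p = 0.0238). The Mem+Sol value was -0.38 ± 0.18 (adjusted p = 0.116).

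Traf2 (ENSMUSG00000026942.13), the ubiquitin-ligase adaptor that TRADD brings in, held 35.3, 33, 35.6, 37.8 and 32 CPM in WT lungs. Mem lungs held 35.8, 37.2, 43, 42.6 and 44.6 CPM, and Mem+Sol lungs 36.2, 34.3, 33.8 and 33.3 CPM. The 3 Mem lungs of batch 1 (43, 42.6 and 44.6 CPM) lay above every WT library, and the 2 of batch 2 (35.8 and 37.2 CPM) did not. Traf2 rose in Mem by 0.23 ± 0.07 (log2, adjusted p = 0.0459), a call that stood close to the threshold, with 0.36 in batch 1 and 0.10 in batch 2 (adjusted p = 0.0932 and 0.607). It was lost when 7 of the 10 libraries were left out in turn, with adjusted p from 0.0239 to 0.182 over the 10. Mem+Sol differed from WT by 0.01 (95% interval -0.15 to 0.17) and from Mem by -0.22 ± 0.07 (adjusted p = 0.12). In the ileum Traf2 gave -0.08 in Mem and 0.07 in Mem+Sol (adjusted p = 0.784 and 0.735).

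Ripk1 (ENSMUSG00000021408.15), the kinase whose ubiquitin chains carry the signal and which can also start cell death, was not called in any comparison. It ran from 54.6 to 73.8 CPM in WT, 62.7 to 78.3 in Mem and 59.4 to 67.5 in Mem+Sol lungs. In the ileum it was 57 to 79.5 CPM in WT, 52.2 to 65.8 in Mem and 41 to 61.7 in Mem+Sol. The largest of its differences was -0.34 ± 0.14 in Mem+Sol ileum (adjusted p = 0.07, and 0.037 with DESeq2). Ripk1 exons overlap those of Gm17084, a processed pseudogene, by 511 bases on the same strand and those of Serpinb6a by 241 bases on the opposite strand, and whether counting used the strand is not given in the sources used here, so its counts are uncertain by that share.

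Birc3 (ENSMUSG00000032000.17), which encodes cIAP2, a ubiquitin ligase that blocks the death branch and is itself an NF-κB target, was called higher in Mem lungs and lower in Mem+Sol ileum. WT lungs held 56.1, 51.3, 49.4, 49.5 and 57.7 CPM, Mem lungs 61.8, 69.7, 62.6, 77.8 and 65.3 CPM and Mem+Sol lungs 58.8, 81, 66.4 and 64.2 CPM. Every transgenic lung lay above every WT lung. The difference was 0.33 ± 0.09 (log2, adjusted p = 0.0337) in Mem and 0.32 ± 0.10 in Mem+Sol, which did not pass (adjusted p = 0.129). Mem+Sol and Mem lungs differed by -0.01 (95% interval -0.21 to 0.19). The Mem call was lost in 7 of 10 fits that left out 1 library (adjusted p from 0.0254 to 0.108) and within each batch, where the values were 0.35 and 0.29.

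In the ileum Birc3 held 33.9, 44.6, 50.7, 31 and 39.2 CPM in WT, 31.7, 28.5, 27.3, 31.8 and 32.6 CPM in Mem, and 17.4 to 34.5 CPM with a median of 30.7 in Mem+Sol. Transgenic libraries filled the lower end of the WT range and below. Mem+Sol fell by 0.53 ± 0.18 on the log2 scale (adjusted p = 0.0386), but it did not pass when Mem+Sol replicate 1 or 6 or WT replicate 2, 3 or 5 was left out (adjusted p 0.0692, 0.112, 0.0798, 0.1 and 0.0538). The Mem value was -0.42 ± 0.18 (adjusted p = 0.176). The effect differed between the tissues by 0.73 ± 0.21 (lung minus ileum, adjusted p = 0.0307) for Mem and 0.85 ± 0.22 (adjusted p = 0.00817) for Mem+Sol, and 8.23% and 18.1% of all tested genes differed there. The Mem difference was lost in 9 of 20 fits that left out 1 library (adjusted p up to 0.0703).

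Levels of tissue markers also moved in the same ileum groups. There, 5% of all tested genes were called higher in Mem and 16.6% in Mem+Sol, and 3.06% and 12.1% lower. The 5 smooth muscle markers summed to 1770 to 3990 CPM in WT, 6350 to 10500 in Mem and 8740 to 40900 in Mem+Sol ileum, with 3 and 5 of 5 called higher. The 6 ileal epithelium markers summed to 11400 to 15500, 7210 to 10600 and 4880 to 10500 CPM, with 1 and 3 of 6 called lower. They did not move together. Mean Fabp6 was 5450, 1030 and 297 CPM in WT, Mem and Mem+Sol ileum, whereas mean Muc2 was 3930, 6150 and 4900 CPM. Of the 6 endothelial markers, 3 and 4 were called higher (45.3 to 148, 135 to 277 and 193 to 299 CPM). None of these markers was at 0. Their part in the Birc3 difference was not tested.

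Birc2 (ENSMUSG00000057367.12) encodes cIAP1 and lies 11.6 kb from Birc3 on chromosome 9. The genes are paralogs, so reads in their shared stretches may have been assigned to either. Lung Birc2 ran from 48.8 to 60.2 CPM in WT, 49.1 to 73.7 in Mem and 57.2 to 72.7 in Mem+Sol. Its differences of 0.16 ± 0.07 (adjusted p = 0.175) and 0.19 ± 0.08 (adjusted p = 0.232) did not pass, nor did 0.12 and 0.15 in the ileum (adjusted p = 0.755 and 0.6). Per kilobase of exon, Birc3 stood at 1.07 ± 0.191 of Birc2 in WT ileum (SD, n = 5), 0.726 ± 0.147 for Mem (n = 5) and 0.686 ± 0.24 for Mem+Sol (n = 6). In the lung the ratio was 0.911 ± 0.0777, 1.02 ± 0.113 and 0.99 ± 0.0808 (n = 5, 5 and 4).

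Map3k7 (ENSMUSG00000028284.13), the TAK1 kinase gene, was not called in either tissue. Lungs held 72.8 to 92.5 CPM in WT, 67.6 to 86.7 in Mem and 69.7 to 86.3 in Mem+Sol, with differences from WT of -0.13 (95% interval -0.28 to 0.02) and -0.08 (-0.25 to 0.08). Ileum libraries held 35.3 to 54.6, 42.7 to 58.7 and 40.8 to 57.8 CPM, with 0.25 (-0.09 to 0.58) and 0.15 (-0.18 to 0.48). Across the 14 lung libraries Map3k7 and Tradd had a Pearson correlation of -0.915 on log2 CPM. Over all 3 genotypes Tradd held 14.4 to 17.8 CPM in the lungs of batch 2 and 17.2 to 25.7 CPM in those of batch 1, and Map3k7 80 to 92.5 and 67.6 to 86.3 CPM. Mem+Sol replicate 2, of batch 1, lay among the batch 2 values for both genes (17.2 and 86.3 CPM). The part of the batch in the correlation was not tested.

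Nfkb1 (ENSMUSG00000028163.17), which encodes the NF-κB subunit p105 and p50, differed little between the groups. It ran from 171 to 185 CPM in WT, 182 to 221 in Mem and 174 to 185 in Mem+Sol lungs. The difference was 0.09 (95% interval -0.04 to 0.22) in Mem and -0.03 (-0.17 to 0.11) in Mem+Sol. Mem+Sol against Mem lungs gave -0.12 (95% interval -0.25 to 0.02). The ileum intervals against WT were wider than those of the lung, at -0.33 to 0.47 in Mem and -0.51 to 0.27 in Mem+Sol.

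Nfkbia (ENSMUSG00000021025.8), the IκBα inhibitor that NF-κB induces within its own feedback loop, was the most abundant member per kilobase in WT libraries of both tissues. WT lungs held 222, 235, 145, 243 and 281 CPM, Mem lungs 200, 234, 280, 199 and 316 CPM and Mem+Sol lungs 303, 210, 215 and 236 CPM. The groups overlapped nearly in full, with 0.10 (95% interval -0.26 to 0.46, adjusted p = 0.741) in Mem and 0.06 (-0.33 to 0.45, adjusted p = 0.888) in Mem+Sol. Ileum libraries ran from 119 to 282 CPM in WT, 86.9 to 215 in Mem and 97.7 to 257 in Mem+Sol, and neither difference (-0.42 and -0.17) passed.

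**Figure D4:**
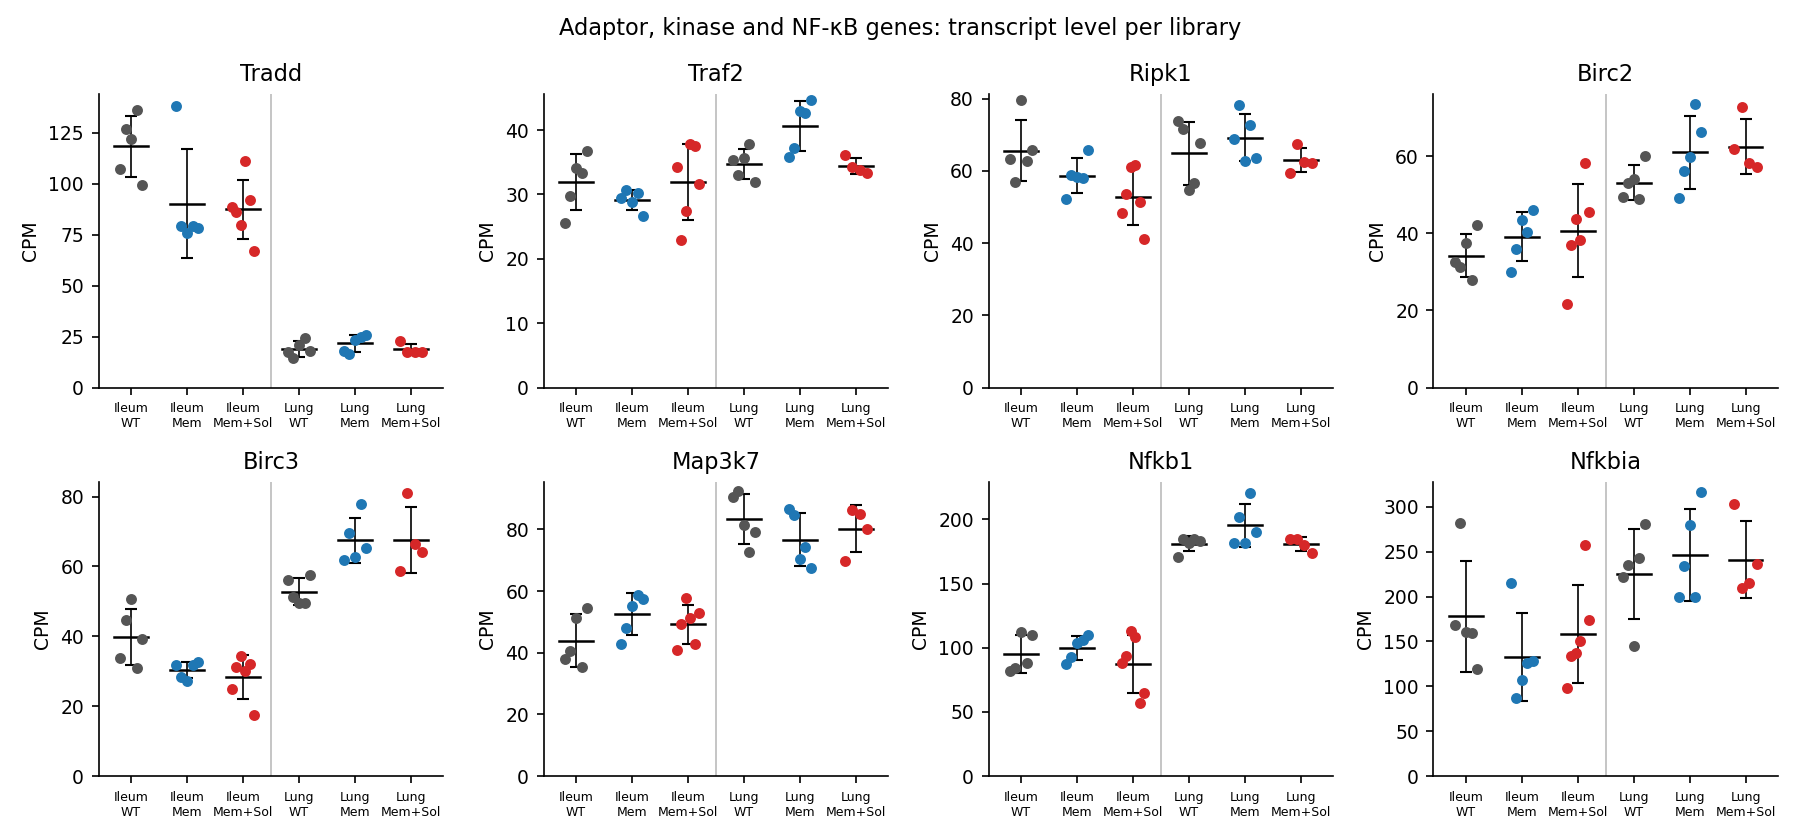
Transcript level in CPM of the 8 signalling genes in each library of the 6 groups, on axes that start at 0; points are libraries, bars are means and error bars are SD. Traf2 and Birc3 are higher in Mem lungs than in WT lungs, and Tradd in the ileum has 1 Mem library at 138 CPM above the other 4.

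Per kilobase of exon, the levels of the WT libraries fell into steps. In WT lungs Nfkbia stood highest, at 140 ± 31 CPM per kb (SD, n = 5), followed by Nfkb1 at 15 ± 0.495 and Map3k7 at 13 ± 1.27. Birc2 (11.6 ± 0.995) came next, above Birc3 (10.5 ± 0.775) by more than the SD of either, and Birc3 and Tradd (10.2 ± 2.01) lay within 1 SD of each other. Ripk1 (7.77 ± 1.05) and Traf2 (6.81 ± 0.449) differed by less than the SD of Ripk1. Tnfsf15 (2.29 ± 0.619) and Tnfrsf25 (2.23 ± 0.203) were lowest and did not differ beyond their spread. In WT ileum the order was Nfkbia (110 ± 38), Tradd (63.4 ± 8.03), then Birc3 (7.96 ± 1.59), Nfkb1 (7.88 ± 1.22), Ripk1 (7.86 ± 1.01), Birc2 (7.47 ± 1.22), Map3k7 (6.84 ± 1.32) and Traf2 (6.25 ± 0.854), whose neighbours lay within 1 SD, and last Tnfsf15 (1.5 ± 0.598) and Tnfrsf25 (1.07 ± 0.181). Tradd stood next to Nfkbia in the ileum and below Birc3 in the lung. The whole gene model sets these lengths, and which part of Tnfsf15 the transgenes carry is not given in the sources used here.

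The ratio of ligand to receptor RNA was highest in Mem+Sol lungs. Per kilobase, Tnfsf15 stood at 1.03 ± 0.274 of Tnfrsf25 in WT lungs (SD, n = 5), 1.93 ± 0.243 for Mem (n = 5) and 10.3 ± 1.54 for Mem+Sol (n = 4). The lowest Mem+Sol library (9.02) lay above the highest Mem library (2.12), and the lowest Mem library (1.52) above the highest WT library (1.34). In the ileum the ratio was 1.38 ± 0.549, 0.979 ± 0.322 and 1.83 ± 1.27 (n = 5, 5 and 6), and the groups overlapped. These ratios were chosen after the values were seen and were not tested.

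Across libraries the ligand and the receptor did not vary together, with a Pearson correlation on log2 CPM of 0.0613 over the 14 lung and 0.05 over the 16 ileum libraries. The points share genotype, batch and depth, and correlations are given as descriptions. The highest positive values among the members were Tradd with Traf2 (0.799) and Birc2 with Birc3 (0.76) in the lung and Ripk1 with Birc3 (0.797) in the ileum. In the lung Tnfrsf25 had 0.728 with Traf2, and Tnfsf15 had 0.653 with Birc3.

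The genes most like Tnfsf15 over the 14 lung libraries were Csn2 (Pearson r 0.91 on log2 CPM), Eif2a (0.908), Amtn (0.873), Csn3 (0.861) and Ppp3r1 (0.81). Csn2 and Csn3 encode milk caseins and Amtn the enamel protein amelotin. For Tnfrsf25 the most alike were Espl1 (0.941), Chia1 (0.939), Arg1 (0.933), Tubb6 (0.929) and Gins2 (0.929), which include the chitinase and arginase genes of type 2 inflammation and genes of the dividing cell. At least 0.8 was reached by 251 genes with Tnfrsf25 and by 5 with Tnfsf15. Over the 16 ileum libraries the highest were Sgk3 (0.85), Ctsa (0.811), Mcur1 (0.797), Cd209a (0.791) and Cox4i2 (0.779) for Tnfsf15, and Slc5a5 (0.764), Uspl1 (0.758), Rnf8 (0.75), Purg (0.735) and Krt4 (0.734) for Tnfrsf25.

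Downstream of the members, several NF-κB genes rose in Mem lungs. In Mem lungs 9.46% of all tested genes were called, 6.41% higher and 3.05% lower. Of 11 other NF-κB and IκB genes, 5 were called higher and none lower there, with a median log2 difference of 0.337 beside -0.0168 over all tested genes. They include Nfkbie (IκBε, 0.81 ± 0.12, adjusted p = 0.0011), Nfkb2 (p100, 0.44 ± 0.08, adjusted p = 0.0028), Relb (0.50 ± 0.09, adjusted p = 0.00445) and Nfkbiz (IκBζ, 0.64 ± 0.15, adjusted p = 0.0145). Nfkbie went from 13.7 to 17.5 CPM in WT lungs to 19.6 to 34 in Mem lungs, without overlap, and Relb from 26.8 to 41.3 to 33.1 to 56.5, with overlap. Of the members of their kind, Nfkb1 and Nfkbia, neither was called.

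Of 20 NF-κB target genes, 10 were called higher and none lower in Mem lungs (median 0.642), where 6.41% of all tested genes were called higher and 3.05% lower. The neutrophil granule protein gene Lcn2 had 2.19 ± 0.19 (adjusted p = 7.73e-05), and 3 chemokine genes followed, Ccl20 with 4.26 ± 0.53 (adjusted p = 0.000393), Cxcl1 with 1.78 ± 0.26 (adjusted p = 0.00103) and Ccl2 with 1.96 ± 0.31 (adjusted p = 0.00148). Ccl20 was low in WT lungs (0.0684 to 0.791 CPM) and stood at 1.57 to 11 CPM in Mem lungs, and Lcn2 went from 91.3 to 138 to 297 to 942 CPM. Several of these genes are also made by myeloid cells, and 7 of 8 macrophage and dendritic cell markers were called higher in Mem lungs, with a sum of 3490 to 4970 CPM in WT, 4660 to 7760 in Mem and 3240 to 6230 in Mem+Sol. None of those markers was at 0, and their part in the target genes was not tested.

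In Mem lungs 2 of 16 kinase and ubiquitin genes were called, both higher, where 9.46% of all tested genes were called and 6.41% higher, so the count is near the background: Tnfaip3 (A20, the enzyme that takes ubiquitin chains off the complex, 0.49 ± 0.10, adjusted p = 0.00951) and its partner Tnip1 (0.33 ± 0.07, adjusted p = 0.00995). The median of that list was 0.00324. Of the 12 MAP kinase genes none was called by edgeR (median -0.101).

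In Mem+Sol lungs 0.844% of all tested genes were called, against 9.46% in Mem lungs, and counts of pathway genes are read against those shares. In batch 2 alone 1190 genes were called in Mem+Sol and 5 in Mem. Among the 20 targets Ccl20 (3.14 ± 0.58, adjusted p = 0.0261) and Lcn2 (1.07 ± 0.20, adjusted p = 0.0278) were called higher (median 0.215), and in the death branch Tnfrsf10b, a TRAIL receptor gene, was called lower (-0.84 ± 0.17, adjusted p = 0.0339). None of the 11 other NF-κB genes, the 16 kinase and ubiquitin genes and the 12 MAP kinase genes was called by edgeR. Nfkbiz stood at 0.67 ± 0.16 in Mem+Sol (adjusted p = 0.0623), about its value in Mem, Nfkbie at 0.33 ± 0.13 (adjusted p = 0.236), and Relb at 0.00 ± 0.10 (adjusted p = 0.991). Compared with Mem directly, 5 of 20 targets were lower in Mem+Sol and none higher, led by Lcn2 (-1.12 ± 0.20, adjusted p = 0.0194), Cxcl1 (-1.47 ± 0.28, adjusted p = 0.0223), Nos2 (-1.27 ± 0.24, adjusted p = 0.0236) and Csf2 (-0.75 ± 0.16, adjusted p = 0.0308). Relb (-0.50 ± 0.10, adjusted p = 0.026), Nfkb2 (-0.39 ± 0.08, adjusted p = 0.0284) and Tnfrsf10b (-0.71 ± 0.16, adjusted p = 0.038) were also lower.

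In the ileum, where 8.06% of all tested genes were called in Mem and 28.7% in Mem+Sol, other genes of the pathway passed. Relb was called lower in Mem (-0.76 ± 0.16, adjusted p = 0.0111) and Mem+Sol (-1.03 ± 0.16, adjusted p = 4e-04), the only call among the 11 other NF-κB genes in each, and Junb of the 12 MAP kinase genes was lower in both (-1.12 ± 0.30, adjusted p = 0.0315, and -0.82 ± 0.29, adjusted p = 0.0434). Relb stood at 151 to 230 CPM in WT, 84 to 142 in Mem and 75.3 to 108 in Mem+Sol ileum, without overlap with WT. In Mem+Sol 5 death branch genes were lower, among them Cflar (-0.83 ± 0.21, adjusted p = 0.00786), Bid (-0.81 ± 0.21, adjusted p = 0.00884) and Casp8 (-0.88 ± 0.27, adjusted p = 0.022).

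Of the 13 target genes tested in the ileum, Ptgs2 was higher and the T cell chemokine gene Ccl5 lower in Mem (1.49 ± 0.33, adjusted p = 0.0121, and -2.68 ± 0.66, adjusted p = 0.0213). In Mem+Sol Ptgs2 (1.61 ± 0.32, adjusted p = 0.00196) and Ccl2 (2.33 ± 0.47, adjusted p = 0.00203) were higher and Ccl5 (-3.73 ± 0.63, adjusted p = 0.000703) and Nos2 (-4.21 ± 1.14, adjusted p = 0.0118) lower. Of the 16 kinase and ubiquitin genes 3 were called in Mem+Sol, a smaller share than the 28.7% of all tested genes. Traf5 rose (1.52 ± 0.24, adjusted p = 0.000487) and Tnip1 (-0.64 ± 0.18, adjusted p = 0.0146) and Rnf31 (-0.63 ± 0.19, adjusted p = 0.0197) fell, and none of the 16 was called in Mem. No gene of the 5 lists was called between Mem+Sol and Mem ileum. These calls sit beside the shift of epithelial and muscle markers given above, and the part of that shift in them was not tested.

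**Figure D5:**
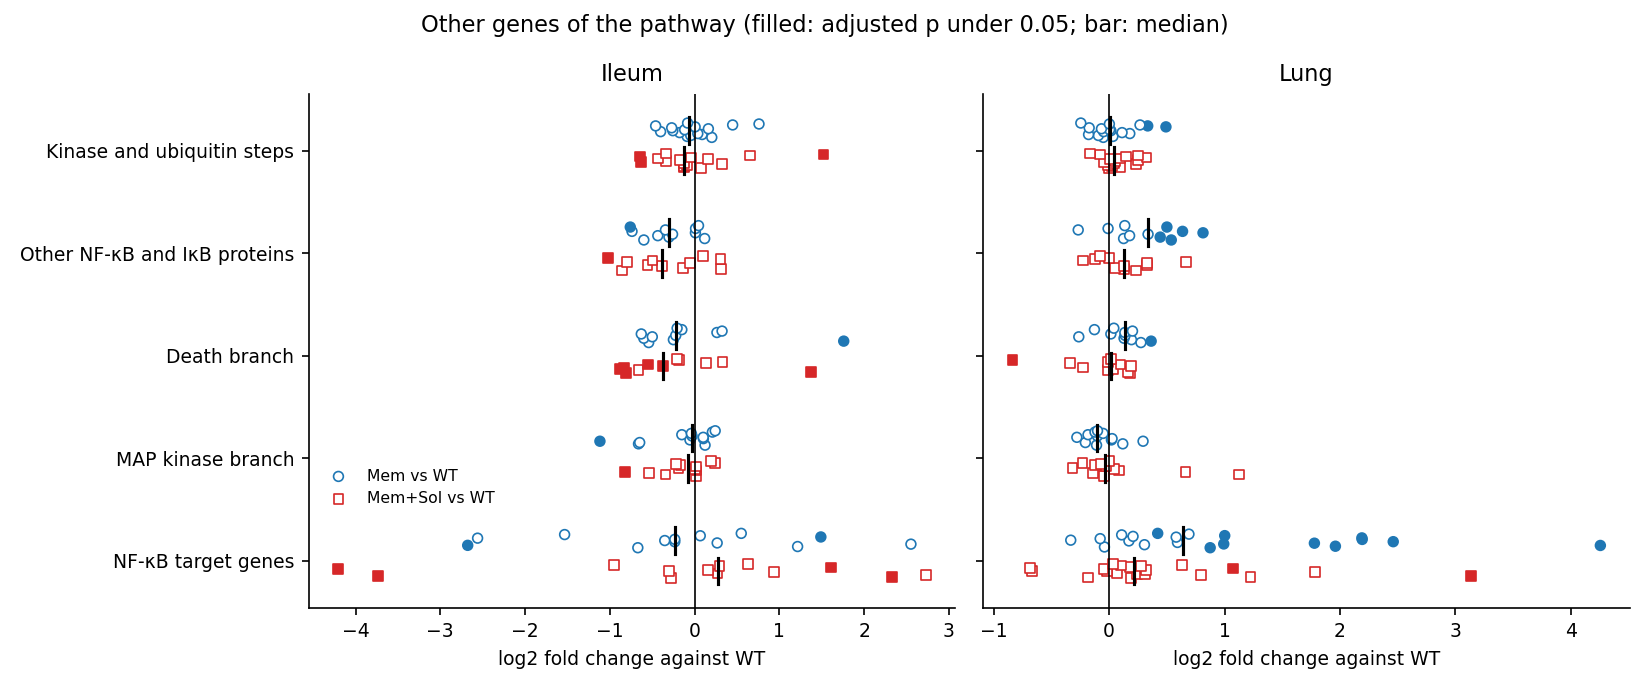
Log2 fold change against WT of the genes of 5 pathway lists in the ileum (left) and the lung (right), for Mem (circles) and Mem+Sol (squares); each symbol is a gene, filled symbols passed an adjusted p of 0.05 and black bars are list medians. In Mem lungs 5 of 11 other NF-κB genes and 10 of 20 targets are filled on the right of 0, and Relb is filled on the left in the ileum.

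The tissue difference was tested for these lists as well. Relb had 1.25 ± 0.20 (log2, lung minus ileum, adjusted p = 0.000357) for Mem and 1.03 ± 0.20 (adjusted p = 0.00113) for Mem+Sol, the same sign as Birc3. For Mem, 4 of 11 other NF-κB genes and 4 of 20 targets differed, all toward the lung, among them Lcn2 (2.44 ± 0.34, adjusted p = 0.000145) and Nfkb2 (0.74 ± 0.21, adjusted p = 0.026). For Mem+Sol, 2 of 11 and 5 of 20 did, and 2 of those 5 targets, Ptgs2 among them (-1.41 ± 0.47, adjusted p = 0.0382), differed toward the ileum. Of the 20 targets, 13 passed the low-count filter within the ileum alone. Ccl20 (both genotypes), Csf2 (Mem+Sol) and the target beside Ptgs2 toward the ileum did not, so their differences rest on low ileum counts. Beside these lists 2 of the 10 members, Birc3 and Tnfsf15 (the target of the transgenes), differed for each genotype, both toward the lung. Of all tested genes 3.56% and 6.55% did so (4.67% and 11.6% toward the ileum).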

How the data were processed

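RNA-seq counts per gene from 30 libraries were used. Per the submitters' processing notes, CASAVA, TopHat2 and the mouse build mm10 were used to make them, and per the labels' protocols RNA was poly-A selected and sequenced in 3 batches. The deposited values are whole-number counts per gene symbol, not normalized, and for the counting tool, annotation and strand setting: not given in the sources used here. Coordinates and exon lengths come from GENCODE M21 on GRCm38 and promoter sequences from RefSeq on GRCm38.p6.

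Genes were filtered with filterByExpr and tested with edgeR 4.0.16 (limma 3.58.1, R 4.3.3), TMM factors and the robust quasi-likelihood test, with Benjamini-Hochberg adjustment over all tested genes. The ileum model held genotype and sex (12 residual degrees of freedom), the lung model also batch (9), and the tissue difference was an interaction over both tissues (21). Figures were drawn with matplotlib 3.10.9. The code was tested on simulated counts. No 2 libraries were duplicates.

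The 10 members and the gene lists were chosen with earlier results of these data known. Named genes are all members, up to 4 called genes per pathway list by smallest adjusted p, the 5 genes most alike Tnfsf15 or Tnfrsf25 per tissue, and 5 marker genes. The ileal epithelium markers Fabp6 and Muc2 were named after their values were seen. All 140 list entries were matched, 139 by symbol and 1 by synonym. Alternatives were DESeq2 1.42.0, RLE factors, no filter, no sex term, only the genotypes compared, a replicate block, thinned ileum counts, batches apart and each library left out. One gene of the death branch list is not reported here.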

Additional observations from a re-analysis of the deposited data

Results flagged for a closer look

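In 3 of 60 combinations of a member and a group, 1 library stood far from the others, and chance gives about 1 in 20. Tradd was 138 CPM in ileum Mem replicate 1, where the other 4 Mem libraries held 75.8 to 79.3 CPM. Tradd was 22.9 CPM in lung Mem+Sol replicate 1, against 17.2 to 17.4 CPM in the others, and Nfkb1 was 171 CPM in lung WT replicate 1, against 182 to 185 CPM. Without ileum Mem replicate 1, the Tradd difference of Mem from WT ileum passed the test (log2 -0.57, adjusted p = 0.0238), and the lung minus ileum difference was 0.80 (adjusted p = 0.00532).

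The effect of the genotype differed between lung and ileum, by the interaction term of edgeR's quasi-likelihood test, for 2 members. The log2 difference, lung minus ileum, was 1.69 for Tnfsf15 and 0.734 for Birc3 in Mem, and 2.92 for Tnfsf15 and 0.854 for Birc3 in Mem+Sol. Lung and ileum libraries came from different sequencing batches, each with its own WT libraries.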

How the results depend on the processing

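All values are log2 differences or counts of genes called at an adjusted p under 0.05. The Tnfsf15 calls in the lung and between the tissues, and the Tnfrsf25 call in Mem lungs, held in every fit that left out 1 library. Over all genes, the main counts were 1205 and 4296 for Mem and Mem+Sol against WT and 2 between them in the ileum, and 1503, 134 and 355 in the lung, and 1388 and 3053 for the tissue differences. DESeq2 gave 1933 (ileum Mem), 45 (ileum Mem+Sol against Mem), 633 (lung Mem+Sol), 967 (lung Mem+Sol against Mem) and 2140 (tissue difference, Mem), and called 2 members in Mem+Sol ileum. With no filter, 0 members were called in Mem+Sol ileum and Birc3 between Mem+Sol and Mem lungs was 0.004101.

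Without the sex term the lung counts were 243 (Mem+Sol) and 143 (Mem+Sol against Mem), and signs turned for ileum Mem+Sol Traf2 (-0.0001952), for lung Mem+Sol Tnfrsf25 (0.008784), Traf2 (-0.001872) and Nfkb1 (0.005361), for Birc3 between Mem+Sol and Mem lungs (0.008384), and for the tissue differences of Tnfrsf25 (0.05806) and Birc2 (-0.01103) in Mem and Traf2 (0.005868) in Mem+Sol. Replicate numbers were not taken as pairs, and some same-numbered libraries differed in sex and, in the lung, in batch. Residuals of same-numbered libraries correlated over 0.1 in 8 of 15 pairs in the ileum and 5 of 13 in the lung. Differently numbered libraries were not compared, so these counts cannot decide whether the numbers mark pairs. With the replicate block 0 members were called in Mem+Sol ileum and 2 in Mem lungs, 68 genes were called in Mem+Sol lungs, and signs turned for ileum Mem Tnfsf15 (0.05399), for ileum Mem+Sol against Mem Tradd (0.08326), Birc2 (-0.06921) and Birc3 (0.02344), for lung Mem+Sol Traf2 (-0.01651) and for lung Mem+Sol against Mem Nfkbia (0.06079). With only the genotypes compared, 0 members were called in Mem+Sol ileum, and 33 genes and 1 member between Mem+Sol and Mem lungs, with Tnfsf15 at 0.0633 in Mem ileum and Nfkbia at 0.009788 between Mem+Sol and Mem lungs. Thinned ileum counts gave Tnfrsf25 0.02367 between Mem+Sol and Mem.

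Without the batch term the lung gave 524, 18 and 34 genes, 2 members in Mem, and Traf2 at -0.007291 in Mem+Sol. Batch 1 alone gave 956, 15 and 21 genes, 2 members in Mem and 1 between Mem+Sol and Mem, where Birc2 was -0.0776. Batch 2 alone gave 5, 1190 and 1736 genes and 1 member in Mem, with Nfkbia at -0.07433 in Mem, Traf2 at -0.02187 and Nfkbia at -0.01773 in Mem+Sol, and Tradd at 0.01846, Map3k7 at -0.05102 and Nfkbia at 0.05659 between Mem+Sol and Mem. The cause of these shifts was not tested.

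With 1 library left out, ileum counts ran from 448 to 2396 (Mem), 3069 to 4793 (Mem+Sol) and 2 to 8 (Mem+Sol against Mem). The highest Mem count was without Mem replicate 1. Lung counts ran from 627 (without WT replicate 5) to 2006 in Mem, from 10 (without Mem+Sol replicate 4) to 500 (without Mem+Sol replicate 2) in Mem+Sol, and from 30 (without Mem replicate 2) to 648 (without Mem+Sol replicate 2) between them. Tissue differences ran from 808 to 2779 and from 2043 to 3731. Members called ran from 0 to 1, 0 to 2 and 0 to 0 in the ileum, 2 to 4, 1 to 1 and 1 to 2 in the lung, and 1 to 3 and 2 to 2 for the tissue differences. Signs turned within these ranges: ileum Mem Nfkb1 -0.01826 to 0.131 and Tnfsf15 -0.5262 to 0.007424, ileum Mem+Sol Nfkbia -0.3285 to 0.03812, Tnfsf15 -0.02837 to 0.5806 and Traf2 -0.007023 to 0.1188, ileum Mem+Sol against Mem Birc2 -0.07604 to 0.1578, Birc3 -0.1857 to 0.008433 and Tradd -0.08773 to 0.1604. In the lung they were Nfkbia -0.02418 to 0.1814 in Mem, Nfkbia -0.03583 to 0.1555, Tnfrsf25 -0.1209 to 0.0517 and Traf2 -0.04178 to 0.03605 in Mem+Sol, and Birc2 -0.01413 to 0.08871, Birc3 -0.1076 to 0.06984, Map3k7 -0.03845 to 0.08469 and Nfkbia -0.1413 to 0.06254 between Mem+Sol and Mem. Tissue differences turned for Birc2 -0.06403 to 0.143, Nfkb1 -0.03277 to 0.1078 and Tnfrsf25 -0.2027 to 0.1465 in Mem, and Birc2 -0.1121 to 0.1747 and Traf2 -0.09805 to 0.02615 in Mem+Sol. None of the members whose sign turned was called in that comparison. Ileum WT libraries were the shallowest, and how far depth limits each member was not compared.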

Other observations

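Counts on the milk casein genes Csn2 and Csn3 were found in Mem+Sol libraries of both tissues. The casein genes Csn1s1, Csn1s2a and Csn1s2b, on the same chromosome, had at most 3 counts summed over any group of either tissue. Csn2, the beta-casein gene on chromosome 5 at 87692624 to 87699630, had 2 counts summed over the 5 WT lungs, 35 over the 5 Mem lungs and 26296 over the 4 Mem+Sol lungs. Its level in Mem+Sol lungs was 118 to 410 CPM, and its summed share of counts was 15570 times that of WT (95% interval 4310 to 128570, counting error only). In the ileum Csn2 had 2 counts in WT, 2 in Mem and 2124 in Mem+Sol, where all 6 libraries held it at 3.68 to 25.1 CPM. The ileum ratio to WT was 378 (95% interval 105 to 3123, counting error only).

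Csn3, the kappa-casein gene, had 0, 2 and 197 counts in WT, Mem and Mem+Sol lungs, at least 77.8-fold higher in Mem+Sol than a floor of 3 counts over the WT group. In the ileum it had 3, 6 and 2293 counts, with 1.6 to 23.6 CPM in Mem+Sol. Amtn, on the same chromosome at 88376108 to 88385916, had 7, 11 and 386 counts in the lung (1.49 to 4.69 CPM in Mem+Sol) and 1, 0 and 0 in the ileum. In both tissues, then, Csn2 and Csn3 set Mem+Sol libraries apart from WT and Mem, including the ileum, where Tnfsf15 did not. The tables hold 1 count per gene, and whether these counts come from the casein genes themselves or from sequence carried by a construct was not tested.

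Tnfsf8, which encodes the CD30 ligand and lies next to Tnfsf15 on chromosome 4, was looked at after its values were seen. In the lung it was called higher in Mem (0.89 ± 0.19 on the log2 scale, adjusted p = 0.0104, edgeR's quasi-likelihood test) and in Mem+Sol (1.10 ± 0.205, adjusted p = 0.0252), with 1.44 to 2.4 CPM in WT, 2.68 to 5.8 in Mem and 2.78 to 5.73 in Mem+Sol. Of all tested genes 6.41% and 0.523% were called higher there. Col27a1, Akna, Whrn, Atp6v1g1 and Tnc, also near Tnfsf15, were not called in the lung. In the ileum Tnfsf8 did not pass the low-count filter. Tnc was called higher in both transgenic ileum groups and Atp6v1g1 in Mem+Sol ileum.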
